A study of Mus musculus with 30 samples.

Results

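The 10 genes described here encode mouse proteins that the polyoma middle T antigen (PyMT), a viral oncoprotein, works through. They are Ppp2r1a, Src, Yes1, Fyn, Shc1, Grb2, Gab1, Pik3r1, Pik3ca and Akt1. They were chosen by name from the known signalling of PyMT, not by their values. For each gene the transcript row with the highest mean was taken, which gave 10 of the 20849 named genes. RPKM values scale a transcript's reads by its length and by the size of the library. Tests were run on the 13617 genes that averaged 1 RPKM or more, and all 10 members were among them.

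The tumours came from 30 mice of 1 backcross, in which offspring of the wild-derived MOLF strain and PyMT mice were mated to FVB, and MOLF and FVB segments therefore differ from animal to animal. All tumours arose in mammary tissue and all form 1 group, with 1 library of poly-A RNA per animal. The labels give no untreated or PyMT-free tissue, no treatment, age or stage, and do not name the promoter that drives PyMT. The comparisons are therefore relations across tumours (n = 30 unless stated), and the number that the labels give an animal serves as its name.

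PyMT has no enzyme activity of its own. It sits at the membrane, binds the scaffold and catalytic subunits of protein phosphatase 2A (PP2A), and through this complex gathers the tyrosine kinases Src, Yes and Fyn, which phosphorylate it. The phosphorylated tyrosines then serve as docking sites for the adaptor Shc1, which brings Grb2 and Gab1 to the Ras arm, and for the regulatory subunit of phosphoinositide 3-kinase, which brings the catalytic subunit and leads to Akt activation. These data measure RNA only, so neither the binding nor the phosphorylation of any of these proteins was observed, and the PyMT transcript itself was not analysed here.

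Low RPKM values move in steps of 1 read, which gave depths of 42.58 to 61.83 M reads for 16 shallow libraries and 116.7 to 196.7 M for 14 deep ones. The luminal markers were high in every tumour, with Krt8 at 515 ± 112 RPKM, Krt18 at 521 ± 112 and Epcam at 442 ± 74.7 (SD, n = 30). Summed levels ranged from 411 to 7240 RPKM for the 18 stroma matrix genes, from 283 to 732 for the 14 macrophage genes, from 10.4 to 89.3 for the 13 T cell genes, from 48.4 to 2490 for the 11 adipocyte genes and from 36.8 to 16560 for the 14 skeletal muscle genes. In such pieces of tissue, fewer cells of a type and less RNA per cell cannot be told apart. The library of animal 4150 stands apart, with the fewest reads (42.6 M) and the lowest level of 4 members, Src, Gab1, Ppp2r1a and Akt1. Its values also leaned most to short transcripts, with a length index (the slope of its deviations from the gene means per doubling of transcript length) of −0.268, the next lowest being −0.112 in animal 4030. The results that rest on this library are given with and without it, and the part of its composition in them was not tested.

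The members spanned a wide range of levels, from about 7.59 to 143 RPKM on average, and each of them was detected in all 30 tumours. Ppp2r1a, Pik3r1 and Akt1 were the highest, Shc1, Src and Grb2 came next, and Gab1, Yes1, Pik3ca and Fyn were the lowest. Of the 9 neighbouring pairs in that order, only Akt1 with Shc1 and Grb2 with Gab1 had ranges that did not overlap. Shc1 was above Src in 27 of 30 tumours and Yes1 above Pik3ca in 29. Pik3r1 and Akt1 (17 of 30 tumours) and Pik3ca and Fyn (20 of 30) were the neighbours least separated. The median tested gene had a mean of 11.7 RPKM, so that 3 members, Yes1, Pik3ca and Fyn, lay below it.

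**Figure D1:**
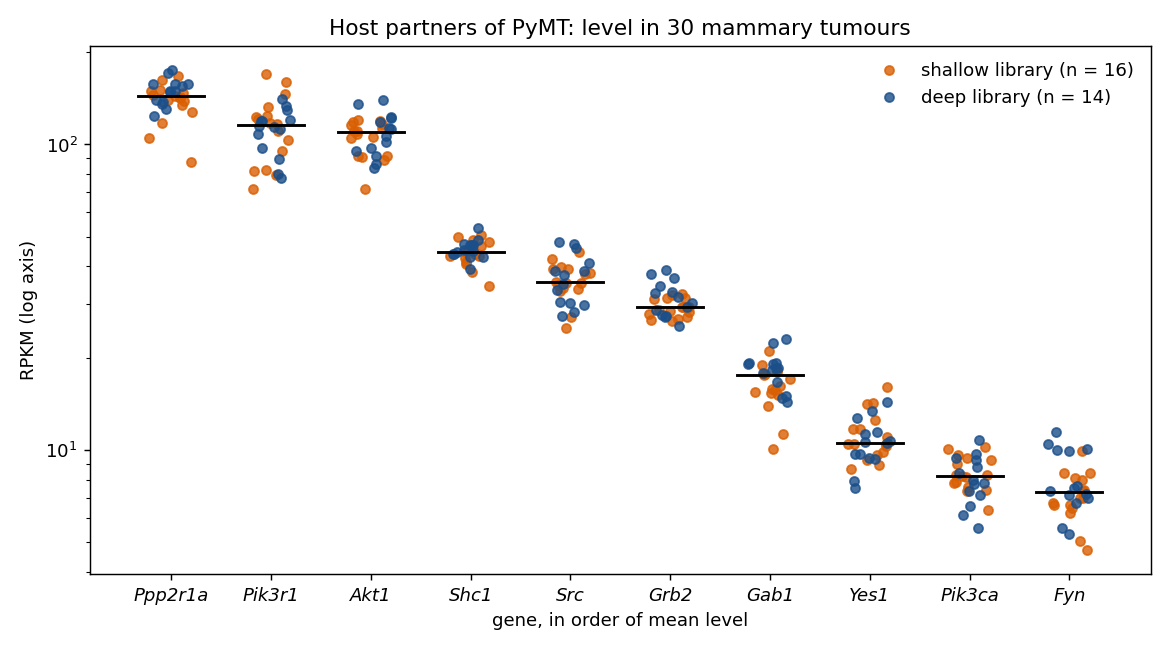
Level of each of the 10 members in RPKM (log axis), 1 point per tumour, orange for the 16 shallow and blue for the 14 deep libraries, with black bars at the medians. Genes are ordered by mean level, and the points of both depth classes overlap for each gene.

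The members were also steady from tumour to tumour. The SD of log2(RPKM + 1) was below the median of all tested genes (0.272) for 8 of 10 members, with a member median of 0.22. Shc1 and Grb2 varied least, at SDs of 0.12 and 0.15, lower than in all but 1.13% and 4.52% of tested genes. Fyn (0.275) and Pik3r1 (0.314) were the 2 members above the median. Each member's highest tumour was between 1.53 times its lowest (Grb2) and 2.43 times (Fyn). None of the 10 passed between deep and shallow libraries (limma, adjusted p of at least 0.51, against 1.24% of all tested genes that did). On simulated data that comparison found 10.45% of genes given a difference of 0.25 log2 units and 54.55% of those given 0.5, so it had little chance to find differences of the smaller size. The smallest of these p-values belonged to Gab1, which averaged 18.3 ± 2.54 RPKM in deep and 16.1 ± 2.75 RPKM in shallow libraries and had an unadjusted p of 0.036.

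The promoters of some of the members that moved together or apart are shown here, as the 250 bases before the annotated start, 5′ to 3′ on the gene's own strand (RefSeq, GRCm38.p6, entries found for 10 of 10 members). Those of Akt1 and Pik3r1, which also moved with other members, are not shown. Src and Ppp2r1a rose together across tumours, Yes1 and Pik3ca rose together, and Src and Yes1 moved apart. Capitals mark the GC box, GGGCGG or its reverse complement CCGCCC, with overlapping matches counted separately. The windows are chr2:157424043-157424292 (plus strand) for Src, chr17:20945204-20945453 (plus strand) for Ppp2r1a, chr5:32610921-32611170 (plus strand) for Yes1 and chr3:32396815-32397064 (plus strand) for Pik3ca.
Src: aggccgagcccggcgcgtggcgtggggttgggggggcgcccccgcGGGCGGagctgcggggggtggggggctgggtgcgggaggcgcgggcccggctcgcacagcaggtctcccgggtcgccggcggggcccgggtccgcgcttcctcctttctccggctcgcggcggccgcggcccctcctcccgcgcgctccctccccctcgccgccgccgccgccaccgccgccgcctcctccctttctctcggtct
Ppp2r1a: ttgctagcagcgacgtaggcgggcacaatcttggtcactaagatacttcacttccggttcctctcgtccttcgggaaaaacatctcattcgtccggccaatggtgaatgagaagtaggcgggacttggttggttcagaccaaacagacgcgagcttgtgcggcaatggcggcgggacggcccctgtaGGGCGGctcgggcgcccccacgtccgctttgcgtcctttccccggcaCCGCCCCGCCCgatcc
Yes1: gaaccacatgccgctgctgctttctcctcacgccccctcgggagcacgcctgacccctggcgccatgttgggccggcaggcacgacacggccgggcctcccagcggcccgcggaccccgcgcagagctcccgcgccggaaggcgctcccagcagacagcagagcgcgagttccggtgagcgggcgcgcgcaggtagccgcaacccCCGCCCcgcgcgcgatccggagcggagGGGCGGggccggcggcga
Pik3ca: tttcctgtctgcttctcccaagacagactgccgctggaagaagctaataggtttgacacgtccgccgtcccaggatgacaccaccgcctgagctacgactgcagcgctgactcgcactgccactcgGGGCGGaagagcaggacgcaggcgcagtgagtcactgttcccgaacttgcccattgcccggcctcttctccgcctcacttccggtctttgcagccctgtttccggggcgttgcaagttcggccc

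The GC box was found once in the Src window, 3 times in that of Ppp2r1a, 2 times in that of Yes1 and once in that of Pik3ca, while 32.7% of all 32851 promoter windows of this length hold one. In the entries not shown, the GC box was found 0 and 4 times for Akt1 and 4 and 0 times for Pik3r1. An ETS core (CCGGAAG or CTTCCGG) was found in the windows of Ppp2r1a, Yes1 and Pik3ca, against 6.91% of all windows, and the window of Src held none. No entry of the members not shown held one either. A CCAAT box (CCAAT or ATTGG) was found in the Ppp2r1a window only among these 4, against 33.8% of all windows, and none held TATAAA or TTTATA, against 12.4%. All 4 windows were richer in G and C than the median window (52.4%), at 82.8% for Src, 77.2% for Yes1, and 61.6% each for Ppp2r1a and Pik3ca. The GC box therefore occurs on both sides of the split between the members described below.

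Across tumours, the members fell into a group around Src, Ppp2r1a and Akt1, another around Yes1, Pik3ca and Pik3r1, and 4 members with weaker ties. Each member was used in turn as the predictor in a limma fit over all tested genes, and a pair was called when each member passed in the other's fit (Benjamini-Hochberg adjusted p under 0.05 over all genes) with the same sign. Of 45 pairs, 6 were called, 5 positive and 1 negative. In the single fits, 15 of 90 member-on-member relations passed (16.7%), against 9.04% of all genes tested in the same 10 fits. By permutation alone, 19 of the 45 pairs had an unadjusted p under 0.05. The permutations were not run over all genes. In the limma fits, between 1751 of 13616 genes (Shc1) and 4713 of 13616 (Pik3ca) had an unadjusted p under 0.05. Without animal 4150, 10 pairs were called. Ppp2r1a with Akt1 was lost, and 5 negative pairs were gained, Src with Pik3ca, Yes1 with Ppp2r1a, Pik3ca with Ppp2r1a, Pik3ca with Akt1, and Pik3r1 with Akt1. In those fits the share of all genes that passed changed as well. It went from 9.39% to 18.4% with Ppp2r1a, from 19.4% to 23.8% with Yes1 and from 7.91% to 10.2% with Src. With Pik3r1 it went from 3.86% to 6.41%, with Pik3ca from 22% to 23.1% and with Akt1 from 14.9% to 13.6%.

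**Figure D2:**
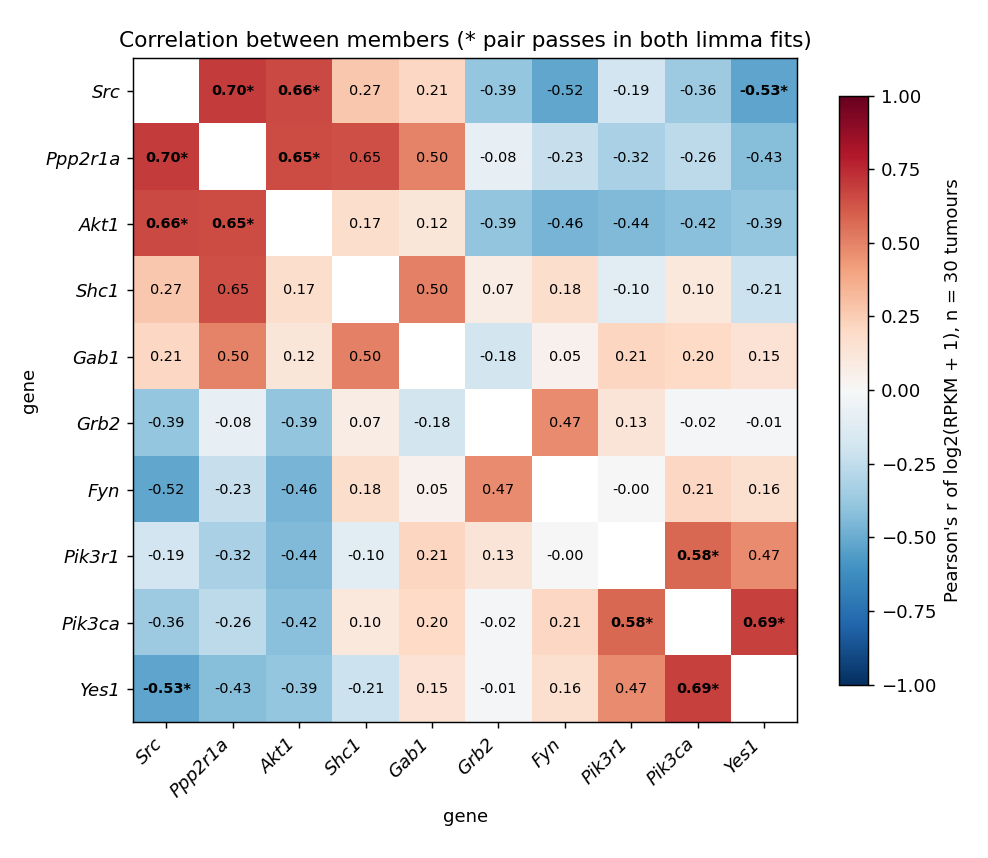
Pearson's r of log2(RPKM + 1) between members over 30 tumours, red for positive and blue for negative, with asterisks on the 6 pairs that passed in both limma fits. The red block at upper left holds Src, Ppp2r1a and Akt1 (r of 0.65 to 0.70), the one at lower right holds Yes1, Pik3ca and Pik3r1, and most cells between those blocks are blue.

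Ppp2r1a encodes the alpha isoform of the PP2A scaffold, the subunit that PyMT binds. It was the most abundant member, with a lowest level of 87.8 RPKM in animal 4150, a median of 144.5 and a highest level of 175.3 in animal 4042 (mean 143.1 ± 18.5, SD). Animals 4150 and 4378 (104.9 RPKM) lay below the rest. Ppp2r1a rose with Src by 0.14 ± 0.03 log2 units per SD of Src (SE, limma adjusted p = 0.0041, and 0.0017 in the other direction). The correlation was r = 0.70 (permutation p = 1e-05, the smallest that the permutations can give) and rho = 0.67 (p = 7e-05), with 0.63 without the 2 tumours farthest in Src. It was 0.74 in the deep and 0.81 in the shallow libraries, and the pair was called in each of the 30 fits that left out 1 tumour.

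Ppp2r1a also rose with Akt1, by 0.13 ± 0.03 log2 units per SD of Akt1 (adjusted p = 0.0047, and 0.0053 in the other direction). Here r was 0.65 (permutation p = 7e-05), rho 0.61 (p = 0.00049), 0.64 without the 2 farthest tumours, 0.72 in deep and 0.66 in shallow libraries. This call was lost when animal 4150 was left out, with a larger adjusted p of 0.052. Shc1 passed in only 1 of the 2 fits with Ppp2r1a (adjusted p = 0.059 and 0.015, r = 0.65, permutation p = 0.00036, rho = 0.55 with p = 0.0021, 0.59 without the 2 farthest tumours), and its r was 0.09 in deep against 0.84 in shallow libraries. For Gab1 and Ppp2r1a, r was 0.50 (permutation p = 0.0076, rho = 0.13 with p = 0.48), but −0.09 without animals 4150 and 4378, with −0.41 in deep and 0.77 in shallow libraries, so that relation rests on those 2 tumours.

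Among 79 tested genes of the PyMT pathway, grouped as Src family, PP2A, adaptors, phosphoinositide 3-kinase, Akt arm, Ras arm, and 14-3-3 and Hippo partners, 9 rose and 1 fell with Ppp2r1a (12.7%, against 9.39% of all genes, of which 5.54% rose and 3.84% fell). Without animal 4150, 17 of the 79 passed, when the share of all genes was 18.4%. The strongest was Ptpa, the activator that helps PP2A fold into its active form, which averaged 69.9 ± 10.7 RPKM and rose by 0.19 ± 0.03 log2 units per SD (adjusted p = 0.00017, r = 0.79). Its call held in all 30 fits with 1 tumour left out. Rictor, the defining subunit of mTOR complex 2, was the gene that fell, by −0.15 ± 0.05 (adjusted p = 0.039, r = −0.52), and its adjusted p passed 0.05 in 6 of those 30 fits. Of the 11 other PP2A genes tested, only Ptpa passed. The genes most like Ppp2r1a over all tumours were Ptk7 (r = 0.86), Pex14 (0.86) and Ttll12 (0.86), and the most unlike were Phf20l1 (−0.81), Lrrc57 (−0.80) and Vps37a (−0.80). The tie to Ptk7, a catalytically inactive receptor kinase, was r = 0.50 in deep and 0.94 in shallow libraries.

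Src, the founding member of its kinase family, had a lowest level of 25.2 RPKM in animal 4150, a median of 35.4 and a highest of 48.0 in animal 4492 (mean 36.2 ± 5.89). Animals 4492, 4139 (47.3) and 4042 (45.9) formed its upper end. Beside Ppp2r1a, Src rose with Akt1, where Akt1 changed by 0.14 ± 0.03 log2 units per SD of Src (adjusted p = 0.0068, and 0.0032 in the other direction). That pair had r = 0.66 (permutation p = 3e-05), rho = 0.51 (p = 0.0047), 0.58 without the 2 farthest tumours, 0.73 in deep and 0.59 in shallow libraries, and it was called in every fit with 1 tumour left out.

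**Figure D3:**
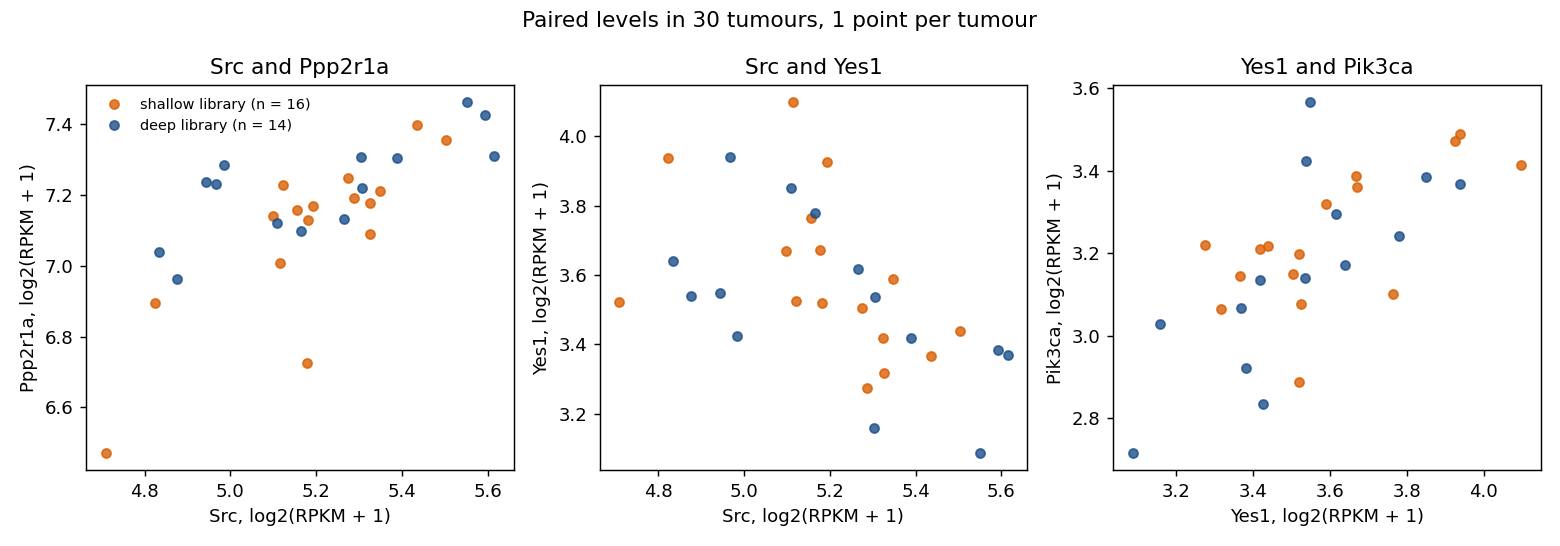
Levels of 3 pairs in 30 tumours as log2(RPKM + 1), orange for shallow and blue for deep libraries. Src and Ppp2r1a rise together (r = 0.70), Yes1 falls as Src rises (r = −0.53), and Yes1 and Pik3ca rise together (r = 0.69), in both depth classes.

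Within the kinase family, the members did not rise together. Yes1 fell by −0.13 ± 0.04 log2 units per SD of Src (adjusted p = 0.041, and 0.02 in the other direction), the 1 negative pair that was called. Its r was −0.53 (permutation p = 0.0026), rho −0.65 (p = 0.0002), −0.58 without the 2 farthest tumours, −0.59 in deep and −0.47 in shallow libraries. The call was lost in 10 of the 30 fits with 1 tumour left out, those without animals 4016, 4042, 4139, 4142, 4144, 4164, 4262, 4357, 4488 or 4492, with a largest adjusted p of 0.091. Src and Fyn passed in only 1 of the 2 fits (adjusted p = 0.044 and 0.12, r = −0.52, permutation p = 0.0036, rho = −0.39 with p = 0.036, −0.41 without the 2 farthest tumours), with r = −0.82 in deep and −0.15 in shallow libraries. Yes1 and Fyn had r = 0.16 (permutation p = 0.40, rho = 0.25 with p = 0.19, 0.39 without the 2 farthest tumours, 0.56 in deep and −0.17 in shallow libraries), with adjusted p-values of 0.59 and 0.71.

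In the Src fit, 6 of the 79 pathway genes rose and 2 fell (10.1%, against 7.91% of all genes, of which 3.81% rose and 4.1% fell), and 5 passed without animal 3654 or 4139. The strongest that rose was Csk, the kinase that holds Src family members inactive, at 39.0 ± 4.73 RPKM, with a slope of 0.11 ± 0.03 (adjusted p = 0.013, r = 0.63), in all 30 fits with 1 tumour left out. The strongest that fell was Rps6kb1, the ribosomal S6 kinase (15.7 ± 2.61 RPKM, slope −0.12 ± 0.04, adjusted p = 0.027), which lost its call without animal 3654, 4038 or 4139. The genes most like Src were Srf (r = 0.87), Jun (0.85) and Jup (0.83), of which Srf and Jun encode transcription factors and Jup the junction protein plakoglobin. Srf averaged 16.6 ± 3.19 RPKM, and its r with Src was 0.93 in deep and 0.84 in shallow libraries. Nmrk1 (−0.79), Cd47 (−0.75) and Acvr2a (−0.75) ran most against Src.

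Yes1, a broadly expressed member of the same kinase family, had a lowest level of 7.51 RPKM in animal 4042, a median of 10.6 and a highest of 16.1 in animal 4438 (mean 10.96 ± 2.02). Animal 4042, lowest in Yes1, was the highest in Ppp2r1a. Yes1 rose with Pik3ca, where Pik3ca changed by 0.14 ± 0.03 log2 units per SD of Yes1 (adjusted p = 0.0014, and 0.00093 in the other direction). For that pair r was 0.69 (permutation p = 3e-05), rho 0.71 (p = 3e-05), 0.61 without the 2 farthest tumours, 0.71 in deep and 0.65 in shallow libraries, with a call in every fit with 1 tumour left out. In the Yes1 fit 16 of the 79 pathway genes rose and 4 fell (25.3%, against 19.4% of all genes, of which 12.6% rose and 6.82% fell). Of those that fell, Dusp6, a phosphatase of the kinase ERK, was the strongest (45.4 ± 13.4 RPKM, slope −0.25 ± 0.07, adjusted p = 0.0081). The Dusp6 call was lost without animal 4438, at an adjusted p of 0.054. Zfp322a (r = 0.93), Ireb2 (0.92) and Mtpn (0.90) were most like Yes1, and Manbal (−0.80), Zfp787 (−0.79) and Ltbr (−0.78) most unlike it.

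Fyn, the other kinase of the family that PyMT is known to bind, was the least abundant member, at a lowest level of 4.71 RPKM in animal 3540, a median of 7.29 and a highest of 11.4 in animal 4016 (mean 7.59 ± 1.66). It was in no called pair. Its fit called 74 of all genes (0.543%, with 0.301% rising and 0.242% falling), and between 9 and 308 when 1 tumour was left out, without animals 3654 and 4438 respectively. Of the 79 pathway genes 1 passed (1.27%), its relative Lyn, which fell by −0.25 ± 0.06 log2 units per SD (28.2 ± 7.19 RPKM, adjusted p = 0.037, r = −0.63) and lost the call in 6 of 30 fits with 1 tumour left out. Ntrk2, the neurotrophin receptor TrkB, rose by 0.72 ± 0.09 log2 units per SD of Fyn (5.15 ± 4.59 RPKM, adjusted p = 0.00019, r = 0.81) and kept its call in all 30. Micu3 (0.72) and Prkaa1 (0.72) followed, the latter with its call lost without animal 3654 or 4038, and Alg9 (−0.81), Gdap1l1 (−0.75) and Plet1 (−0.73) were the most unlike it. Fyn is also used by T cells, and it did not pass with the T cell score (slope 0.06 ± 0.05, adjusted p = 0.59). Its r with that score was 0.23 (permutation p = 0.22) and rho 0.31 (p = 0.10). The r was 0.44 without the 2 farthest tumours, 0.52 in deep and 0.17 in shallow libraries.

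The 3 adaptors showed no called pair with any other member. Shc1, which docks on phosphorylated PyMT, ranged from 34.4 RPKM in animal 4378 through a median of 44.6 to 53.5 in animal 3654 (mean 44.8 ± 3.86). Its fit called 23 genes (0.169%, with 0.147% rising and 0.022% falling), between 3 without animal 4378 and 188 without animal 3654, and none of the 79 pathway genes. That count of 0 became 3 without animal 3654 and 1 without animal 4150. Zfp687 (r = 0.82, 14.3 ± 1.97 RPKM), Zfp521 (0.80) and Ehmt2 (0.77) were most like Shc1, and Tlr3 (−0.68), Vma21 (−0.66) and the casein gene Csn1s2b (−0.65) most unlike it. Vma21 did not pass (adjusted p = 0.059). Ehmt2 lost its call without animal 4378, Csn1s2b without that animal or 4 others, and Tlr3 in 7 of 30 fits with 1 tumour left out.

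Grb2, the adaptor that links phosphotyrosines to Sos and Gab1, ranged from 25.4 RPKM in animal 4488 through a median of 29.5 to 38.8 in animal 3654 (mean 30.3 ± 3.35). Its highest level was followed by 37.7 RPKM in animal 4038. In its fit, which called 2.98% of all genes (2.2% rising and 0.778% falling), Ppp2ca, the PP2A catalytic subunit, rose (122.5 ± 13.4 RPKM, slope 0.10 ± 0.03, adjusted p = 0.032, r = 0.63) and Lyn fell (slope −0.28 ± 0.05, adjusted p = 0.0025, r = −0.71), 2 of the 79 pathway genes (2.53%). The Lyn call held in all 30 fits with 1 tumour left out and that of Ppp2ca was lost in 6. Prkar1a (r = 0.85), Becn1 (0.83) and Tmem102 (0.80) were most like Grb2, and Itpk1 (−0.76), Capn5 (−0.75) and Pex5 (−0.75) most unlike it. Grb2 and Fyn had r = 0.47 (permutation p = 0.0081, rho = 0.46 with p = 0.011, 0.59 without the 2 farthest tumours in Fyn, 0.51 in deep and 0.26 in shallow libraries), with adjusted p-values of 0.20 and 0.12.

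Gab1, the docking protein that Grb2 carries, ranged from 10.1 RPKM in animal 4150 through a median of 17.7 to 23.1 in animal 4488 (mean 17.2 ± 2.84), and animal 4378 (11.3) was the second lowest. In its fit 10 of the 79 pathway genes rose and none fell (12.7%, against 9.25% of all genes, of which 7.59% rose and 1.66% fell), but 1 passed without animal 4150, when the share of all genes was 1.94%. The strongest, Pik3r4, a regulatory subunit of the class III lipid kinase, had a slope of 0.13 ± 0.03 (10.5 ± 1.33 RPKM, adjusted p = 0.0041, r = 0.70) and an adjusted p of 0.13 without that animal. Gtf2ird1 (r = 0.86, 21.7 ± 3.66 RPKM), Pygb (0.83) and Usp22 (0.82) were most like Gab1 and kept their calls without animal 4150. Prr27 (−0.76), Plekha3 (−0.73) and Mrps6 (−0.72) were most unlike it, of which Plekha3 lost its call without that animal.

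Pik3ca encodes the catalytic subunit p110 alpha of phosphoinositide 3-kinase and Pik3r1 the regulatory subunit that docks on PyMT. Pik3ca ranged from 5.57 RPKM in animal 4042 through a median of 8.21 to 10.8 in animal 3654 (mean 8.27 ± 1.27), and Pik3r1 from 71.6 in animal 3427 through 115.7 to 170.5 in animal 4357 (mean 113.2 ± 24.3). On the RPKM scale Pik3r1 was higher than Pik3ca in every tumour. The 2 subunits rose together, Pik3r1 by 0.18 ± 0.05 log2 units per SD of Pik3ca (adjusted p = 0.0064, and 0.042 in the other direction), with r = 0.58 (permutation p = 0.00083), rho = 0.49 (p = 0.0068), 0.46 without the 2 farthest tumours, 0.66 in deep and 0.58 in shallow libraries. The call was lost in 9 of the 30 fits with 1 tumour left out, those without animals 4020, 4030, 4042, 4139, 4315, 4357, 4438, 4461 or 4516, with a largest adjusted p of 0.12. Yes1 and Pik3r1 passed in only 1 of the 2 fits (adjusted p = 0.041 and 0.098, r = 0.47, permutation p = 0.0087, rho = 0.44 with p = 0.016, 0.42 without the 2 farthest tumours, 0.37 in deep and 0.55 in shallow libraries).

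In the Pik3ca fit 16 of the 79 pathway genes rose and 7 fell (29.1%, against 22% of all genes, of which 13% rose and 8.99% fell). Sos1, the exchange factor that loads Ras with GTP, rose by 0.21 ± 0.02 log2 units per SD (6.20 ± 1.13 RPKM, adjusted p = 1e-06, r = 0.91) and was also the gene most like Pik3ca of all those tested. Its r was 0.95 in deep and 0.87 in shallow libraries. Map2k2, a kinase of the Ras arm, fell most firmly (67.0 ± 7.62 RPKM, slope −0.12 ± 0.02, adjusted p = 0.00043, r = −0.75). Ddx6 (0.90) and Atp11b (0.87) followed Sos1, and Znhit2 (−0.92), Mvb12a (−0.89) and Cope (−0.87) were most unlike Pik3ca. In the Pik3r1 fit 2 pathway genes rose and 4 fell (7.59%, against 3.86% of all genes, of which 2.12% rose and 1.75% fell), led by Foxo1, a transcription factor that Akt inhibits (11.2 ± 2.61 RPKM, slope 0.17 ± 0.05, adjusted p = 0.044), and Ppme1, the PP2A methylesterase (23.96 ± 4.02 RPKM, slope −0.14 ± 0.03, adjusted p = 0.017). That count ranged from 0 without animal 4030 to 12 without animal 4016, while the count over all genes, 526 in the 30 tumours, was 25 and 922. Foxo1 lost its call in 12 of 30 such fits, and Ppme1 without animal 4030. Synj2bp (0.73), Cyld (0.72) and Ttc14 (0.72) were most like Pik3r1, and Mrpl17 (−0.74), Rbm42 (−0.73) and Exosc5 (−0.73) most unlike it.

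Akt1, the kinase activated downstream of phosphoinositide 3-kinase, ranged from 71.6 RPKM in animal 4150 through a median of 109.7 to 139.4 in animal 4139 (mean 106.9 ± 15.5). Beside its called pairs with Src and Ppp2r1a, it had r = −0.46 with Fyn (permutation p = 0.01, rho = −0.36 with p = 0.049, −0.48 without the 2 farthest tumours, −0.72 in deep and −0.27 in shallow libraries), which was not called (adjusted p = 0.19 and 0.058). In its fit 5 of the 79 pathway genes rose and 2 fell (8.86%, against 14.9% of all genes, of which 4.9% rose and 10% fell), and 13 passed without animal 4150, when the share of all genes was 13.6%. As with Ppp2r1a, Ptpa rose most firmly (slope 0.18 ± 0.03, adjusted p = 0.00033, r = 0.76) and Rictor fell (6.62 ± 1.43 RPKM, slope −0.19 ± 0.04, adjusted p = 0.0021, r = −0.68), both in all 30 fits with 1 tumour left out. Rpn2 (r = 0.85), Dnpep (0.84) and Ccdc85c (0.82) were most like Akt1. Zmym5 (−0.89), Nmrk1 (−0.87) and Pkd2l2 (−0.86) were most unlike it, and Nmrk1 was also the gene most unlike Src.

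These 2 groups of members differed in base composition. The transcripts of Src (59.4% G and C), Akt1 (59.7%) and Ppp2r1a (54.8%) lay above the median of the tested genes (51.0%), and those of Yes1 (41.1%), Pik3ca (41.2%) and Pik3r1 (43.8%) below it. A GC index was taken for each library, as the slope across genes of a tumour's deviation from the gene's mean on transcript GC content, in log2 units per 10 percentage points. It ranged from −0.25 in animal 4438 to 0.18 in animal 4042. In a limma fit on this index 4 of 10 members passed, 1 rising and 3 falling, against 23.4% of all genes (9.87% rising and 13.6% falling). The index is built from the values of these same genes by their GC content. GC-rich transcripts therefore tend to rise with it, and GC-poor ones to fall, by construction. The directions and p-values that follow are no independent evidence. Yes1 fell by −0.21 ± 0.02 log2 units per SD (adjusted p = 1.8e-07), Pik3ca by −0.14 ± 0.03 (0.00089) and Pik3r1 by −0.14 ± 0.05 (0.044), while Src rose by 0.13 ± 0.04 (0.01). Yes1 had r = −0.91 with the index (permutation p = 1e-05, the smallest that the permutations can give, rho = −0.94 with p = 1e-05), −0.88 without the 2 farthest tumours, −0.97 in deep and −0.90 in shallow libraries.

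**Figure D4:**
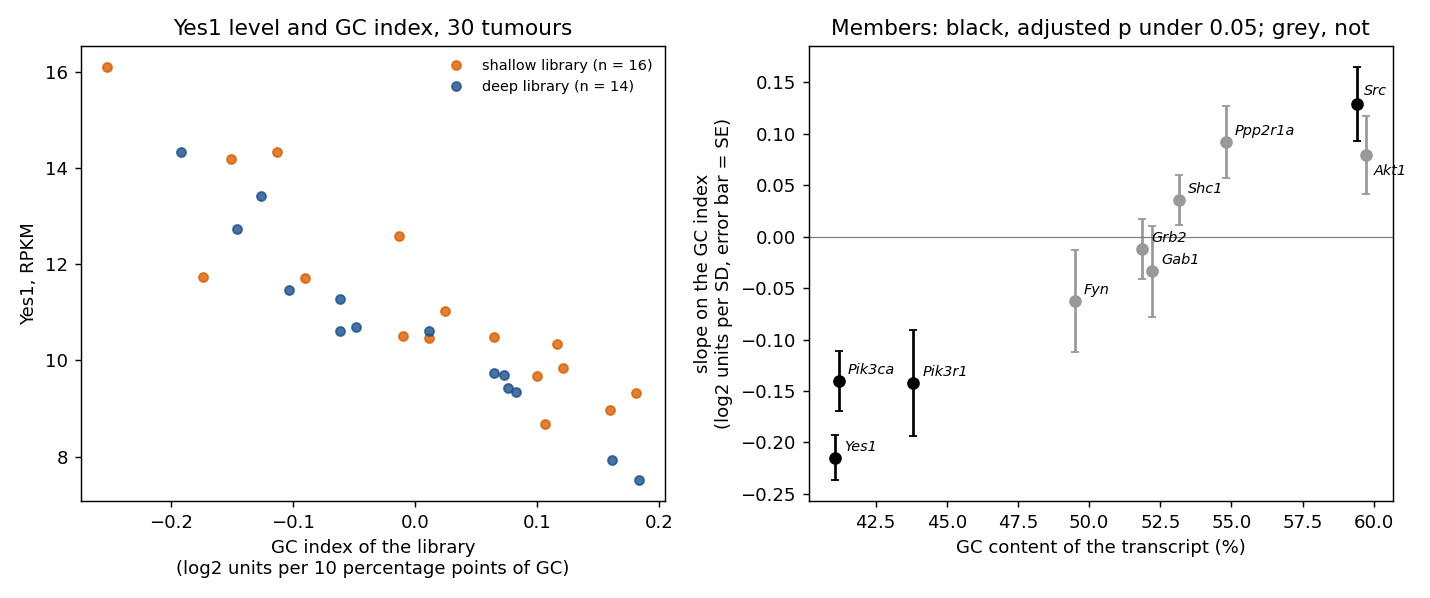
Left, Yes1 in RPKM against the GC index of each library, orange for shallow and blue for deep libraries. Right, the slope of each member on that index (log2 units per SD, bars are SEs) against the GC content of its transcript, black for the 4 members that passed (Yes1, Pik3ca and Pik3r1 below 0, Src above) and grey for the other 6.

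With the GC index as a covariate, which was chosen after seeing the data, 5 pairs were called. The pairs of Src with Ppp2r1a, Src with Akt1, and Ppp2r1a with Akt1 remained, and Ppp2r1a with Shc1 and with Gab1 were added. Src with Yes1, Yes1 with Pik3ca, and Pik3ca with Pik3r1 were no longer called. The slope of Yes1 on Src went from −0.13 to −0.01 (adjusted p = 0.90), and that of Pik3ca on Yes1 from 0.14 to 0.06 (adjusted p = 0.93). The slope of Pik3r1 on Pik3ca changed less, from 0.18 to 0.16 (adjusted p = 0.13). In the same fits, 3.89% of all genes passed with Src, 5.06% with Pik3ca, 0.00734% with Pik3r1 and 0% with Yes1. A pair needs both fits, so no pair of Yes1 could be called there, and almost none of Pik3r1. The loss of those calls is therefore no result about these pairs. The pathway counts became 5 rising and 0 falling for Src, 8 rising for Pik3ca, and 0 for Yes1 and Pik3r1. They were higher for Grb2 (3 rising and 3 falling, against 5.35% of all genes), Ppp2r1a (14 and 1, against 12.2%), Gab1 (12 and 0, against 10.8%) and Akt1 (7 and 2, against 16.6%). Sos1 still rose with Pik3ca (slope 0.20 ± 0.03, adjusted p = 0.0022) and Ptpa with Ppp2r1a (0.19 ± 0.03, adjusted p = 0.00047), while the slope of Csk on Src was 0.07 ± 0.03 (adjusted p = 0.14). The index is estimated from the same libraries, so a shared change in expression of GC-rich genes and a difference in library preparation cannot be told apart. On the length index Yes1, Gab1 and Pik3ca rose, with adjusted p of 0.046, 0.0029 and 0.0016, against 30.9% of all genes (16.3% rising). Their transcripts are the longest of the members, at 4586, 4870 and 8917 bases, where the median tested gene has 2720. The index is built from the values of these same genes by length. Long transcripts therefore tend to rise with it by construction, and these calls are no independent evidence. Without animals 4030 and 4150, the farthest in that index, Yes1 (adjusted p = 0.012) and Pik3ca (0.022) passed and Gab1 did not, and its r with the index went from 0.60 to 0.32. With both indices as covariates, no pair was called, but the slope of Akt1 on Src went only from 0.14 to 0.13 (adjusted p = 0.16), that of Akt1 on Ppp2r1a from 0.14 to 0.12 (0.06) and that of Ppp2r1a on Src from 0.14 to 0.10 (0.18).

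The members were next set against the cell types and states in the tumour pieces. None of the 10 passed with the proliferation score (15.8% of all genes did), the stroma matrix score (22.3%), the macrophage score (10%), the T cell score (1.68%), the adipocyte score (8.61%), the skeletal muscle score (2.3%) or the insert size in the labels (0.0294%). At an unadjusted p under 0.05 the counts were 0, 0, 0, 3, 0, 1 and 2. Over all genes, that threshold was met by 3962 of 13587 for proliferation, 4760 of 13599 for stroma matrix and 3447 of 13603 for macrophage. For the T cell score it was met by 1988 of 13611 and for the adipocyte score by 2995 of 13607. For skeletal muscle it was met by 1954 of 13603 and for insert size by 1759 of 13617. The 3 with the T cell score were Pik3r1 (slope 0.13 ± 0.05, adjusted p = 0.25), Ppp2r1a (−0.09 ± 0.04, 0.23) and Akt1 (−0.09 ± 0.04, 0.26). For the basal, endothelial and B cell scores, r alone was computed, and 3 of these 30 relations had an unadjusted permutation p under 0.05. Yes1 with basal had r = −0.44 (p = 0.014, 0.21 when Benjamini-Hochberg adjusted over the 30), rho = −0.43 (p = 0.019), and r = −0.38 without the 2 farthest tumours, −0.43 in deep and −0.46 in shallow libraries. Ppp2r1a with B cell had r = −0.48 (p = 0.014, adjusted 0.21), rho = −0.40 (p = 0.03), and r = −0.45 without the 2 farthest tumours, −0.68 in deep and −0.32 in shallow libraries. Gab1 with basal had r = 0.41 (p = 0.027, adjusted 0.27), rho = 0.29 (p = 0.12), and r = 0.39 without the 2 farthest tumours, 0.50 in deep and 0.25 in shallow libraries. With the luminal epithelial score, added after seeing the data, none passed either, against 0.728% of all genes. Src came closest, with a slope of 0.13 ± 0.04 (adjusted p = 0.063) and r = 0.58 (permutation p = 0.00084, rho = 0.54 with p = 0.0028, 0.48 without the 2 farthest tumours), which was 0.76 in deep and 0.23 in shallow libraries. Its adjusted p ranged from 0.031 to 0.37 when 1 tumour was left out. Ppp2r1a followed, with a slope of 0.09 ± 0.04 (adjusted p = 0.20), r = 0.44 (permutation p = 0.017) and rho = 0.54 (p = 0.0024). The r of Ppp2r1a was 0.35 without the 2 farthest tumours, 0.83 in deep and 0.20 in shallow libraries.

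Gab1 was the 1 member that passed with the milk secretory score, built from 10 milk genes whose summed level ranged from 2513 to 54996 RPKM. It fell by −0.16 ± 0.03 log2 units per SD of the score (adjusted p = 0.0079), against 1.69% of all genes that passed (1.12% falling). The correlation was r = −0.68 (permutation p = 0.0001), rho = −0.58 (p = 0.00086), −0.57 without the 2 farthest tumours, −0.50 in deep and −0.74 in shallow libraries. The call was lost without animal 4378, at an adjusted p of 0.061, and the slope then was still negative, since it lay between −0.17 and −0.13 in all 30 fits with 1 tumour left out. Shc1 (slope −0.07 ± 0.02, adjusted p = 0.089) and Fyn (−0.12 ± 0.05, 0.18) had unadjusted p-values of 0.0027 and 0.014 and did not pass. Other members had an r of larger size with the score within the deep libraries. These were Ppp2r1a (0.84), Akt1 (0.77), Pik3ca (−0.70), Fyn (−0.69), Pik3r1 (−0.65) and Src (0.62). It was smaller there for Yes1 (−0.47), Shc1 (−0.35) and Grb2 (−0.26). In the shallow libraries r was −0.61 for Ppp2r1a, −0.07 for Akt1, 0.12 for Pik3ca, −0.24 for Fyn, 0.15 for Pik3r1 and −0.42 for Src.

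In a backcross, neighbouring genes are inherited together, so the 25 nearest tested genes on each side of every member were counted in that member's fit. Around Grb2, 11 of 50 neighbours passed, all rising with it (22%, against 2.98% of all genes). Armc7, 9 genes away, was the strongest (3.62 ± 0.59 RPKM, slope 0.14 ± 0.03, adjusted p = 0.0029, r = 0.79, with 0.83 in deep and 0.77 in shallow libraries), and Nt5c, 8 genes away, followed (51.6 ± 12.7 RPKM, slope 0.20 ± 0.04, adjusted p = 0.008). The count was 13 with the GC index as a covariate, when 5.35% of all genes passed. It fell to 3 without animal 3654 and 6 without animal 4038, the 2 tumours with the highest Grb2, while leaving out animal 3654 took the count over all genes from 406 to 106.

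Around Ppp2r1a, 16 of 50 neighbours passed (32%, against 9.39%), 2 rising and 14 falling. Of those that fell, Zfp160, a zinc finger gene and the next tested gene along the chromosome, was the strongest (slope −0.36 ± 0.06, adjusted p = 0.00039, r = −0.73). Zfp160 ranged from 4.11 RPKM through a median of 7.81 to 24.5, while Zfp213, 21 genes away, rose (3.94 ± 0.67 RPKM, slope 0.14 ± 0.03, adjusted p = 0.0034). The count of neighbours was between 14 and 21 when 1 tumour was left out, and with the GC index as a covariate 2 rose and 4 fell, against 12.2% of all genes. Zinc finger genes can resemble each other in sequence, and how reads were shared among such genes is not given in the sources used here.

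Around Pik3ca, 22 of 50 neighbours rose (44%, against 22% of all genes), led by Atp11b (22.5 ± 3.92 RPKM, slope 0.21 ± 0.02, adjusted p = 3.7e-06, r = 0.87) and Phc3 (7.99 ± 1.78 RPKM, adjusted p = 0.00013). With the GC index as a covariate, 3 of the 50 passed, against 5.06% of all genes. For Src 5 of 50 passed (10%, against 7.91% of all genes), for Akt1 10 (20%, against 14.9%), for Pik3r1 3 (6%, against 3.86%), and for Fyn and Shc1 1 each (2%, against 0.543% and 0.169%). For Yes1 7 passed (14%) and for Gab1 2 (4%), shares below those of all genes (19.4% and 9.25%). With the GC index as a covariate the count was 1 for Src (against 3.89% of all genes), 0 for Yes1 (0%) and 0 for Pik3r1 (0.00734%). In those fits it was 1 for Fyn (0.756%), 3 for Shc1 (1.53%) and 4 for Gab1 (10.8%). For Akt1, 7 rose and 2 fell (16.6%). Leaving out 1 tumour gave 1 to 6 for Src (1 without animal 4150) and 6 to 12 for Akt1 (6 without animal 4139). For Yes1 it gave 4 to 11 (4 without animal 4016 or 4144, 11 without animal 3871). For Gab1 it gave 0 to 5 (0 without animal 4150) and for Pik3r1 0 to 6 (0 without animal 4030, 4042 or 4315). For Fyn it gave 0 to 2, with 0 in 10 of the 30 fits. For Shc1 it gave 0 to 1 (0 without animal 4164, 4262, 4378 or 4461). Manbal, next to Src, rose with it (20.5 ± 3.51 RPKM, slope 0.14 ± 0.04, adjusted p = 0.021, r = 0.58) and was the gene most unlike Yes1, and Ppp1cb, next to Yes1, rose with Yes1 (120.5 ± 26.3 RPKM, slope 0.21 ± 0.04, adjusted p = 0.00072, r = 0.69). With the GC index as a covariate, the slope of Manbal on Src was 0.04 (adjusted p = 0.45) and that of Ppp1cb on Yes1 0.06 (adjusted p = 0.96). Genotypes were not analysed here, so the part of inherited segments in these relations was not tested.

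**Figure D5:**
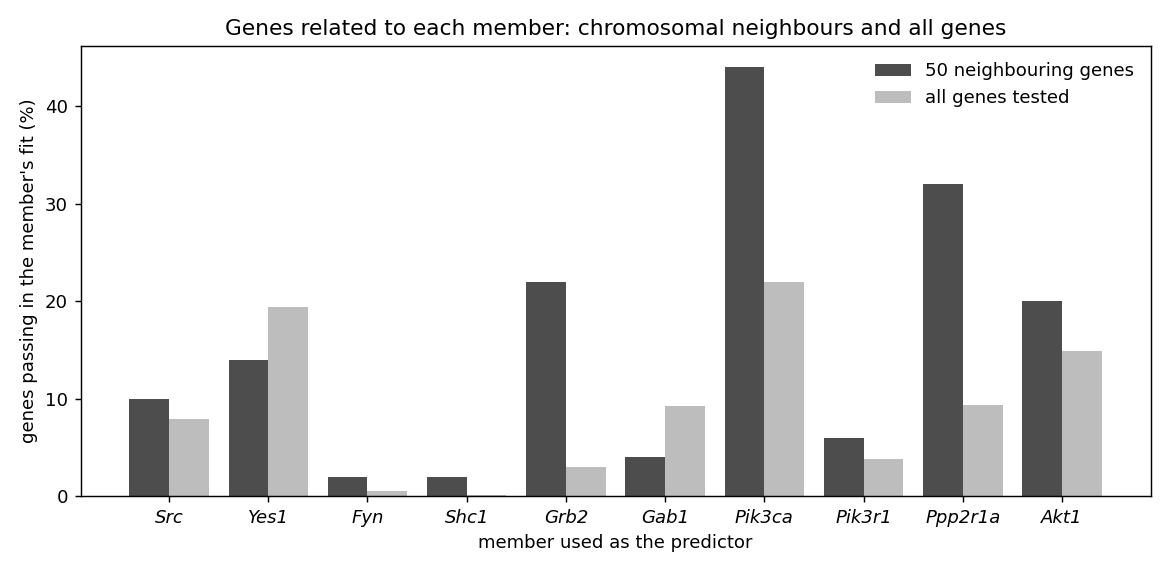
Share of genes that passed in each member's limma fit, in percent, for its 50 nearest tested genes on the chromosome (dark bars) and for all genes tested (light bars). The dark bar exceeds the light one most for Grb2 (22% against 2.98%), Ppp2r1a (32% against 9.39%) and Pik3ca (44% against 22%).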

How the data were processed

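Poly-A RNA from 30 mammary tumours was sequenced, 1 library per animal, so the spread behind each p-value is that between animals and includes technical variation. The authors deposited 1 table of RPKM values for 27902 RefSeq transcripts; the unit was inferred from the values, whose low entries fall on steps set by transcript length. The tool was CASAVA 1.7.0, per the submitters' processing notes. Genome build, annotation and strand handling: not given in the sources used here. Transcripts were named with the RefSeq table of GRCm38.p6 (27161) and GENCODE vM21 (159), and the 582 without a name (1.61% of all RPKM) were not used. Transcripts of 1 gene share reads, and the row with the highest mean was used. Whether reads in the overlap of genes were told apart by strand is not known, which concerns Kcnmb3 for Pik3ca.

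Tests were two-sided limma 3.58.1 fits (R 4.3.3, eBayes with a mean-variance trend) of log2(RPKM + 1). On this scale the change of a low gene is understated. Genes averaging 1 RPKM or more entered, with Benjamini-Hochberg adjustment over all of them (threshold 0.05). Predictors were standardised. A list score was the mean of standardised values of its tested genes (6 of 13 for T cells, 4 of 6 for B cells, 10 of 11 for adipocytes, all for the other lists scored). Correlations used 100000 permutations (scipy 1.17.1, Python 3.11.15). Depth was the step on which most low values of transcripts of 150 to 2500 bases were whole reads; 69.1 to 83.1% lay within 0.12 of one, against 24% by chance, which is too few for a count test. On simulated data for 13617 genes with Src as the predictor, the fit found 10.45% of genes given a slope of 0.1, 70.15% of those given 0.25 and 98.48% of those given 0.5, and 6.30% of its calls were false. In these simulations, including that of the depth classes, genes varied independently, while many real genes vary together. The shares need therefore not hold for the real fits.

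The members, lists, tests and alternatives were chosen with earlier results of these data known. Beside the members, the text names for each member the 3 most and 3 least alike genes by r (passing over other members, unnamed predicted genes and genes with identical values), the pathway gene with the smallest p in each direction, and at most 2 called neighbours; 1 gene that this rule names is not reported here. Alternatives were another pseudocount (0.1), other filters (5 RPKM or none), quantile normalization, depth class as a covariate, each depth class alone, the mean of transcripts, ranks, score covariates, leaving out each tumour, and the GC, length and luminal fits added after seeing the data.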

Additional observations from a re-analysis of the deposited data

How the results depend on the processing

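Of the 6 called pairs, the number was 0 within the 14 deep libraries and 3 within the 16 shallow ones, where fewer tumours enter, and 0 with the GC and length indices together. Leaving out 1 tumour gave 4 to 10 pairs, and the 10 came without animal 4150. It was 4 without the 2 farthest tumours and between 5 and 9 under the other alternatives. With both indices as covariates, 2 members passed with the proliferation score (Gab1 and Ppp2r1a), 1 with the luminal epithelial score (Src) and 3 with the milk secretory score (Fyn, Shc1 and Gab1). With the GC index alone 2 passed with the milk score (Shc1 and Gab1), and with the length index alone 1 passed with the stroma matrix score (Yes1). The shares of all genes that passed in these covariate fits are not given here, so these counts are no result about the members. The milk count was 0 under quantile normalization, within the deep libraries, within the shallow libraries and without the 2 farthest tumours, where the adjusted p of Gab1 was 0.063, 0.25, 0.15 and 0.067, and 0 to 1 when 1 tumour was left out (0 without animal 4378). The luminal count was 0 to 1 (1 without animal 3654 or 4150). The counts for the proliferation, stroma matrix, macrophage, T cell, adipocyte and skeletal muscle scores, insert size and depth class stayed at 0 in all 30 fits with 1 tumour left out. The slopes of the 6 called pairs and of Gab1 on the milk score kept their sign under the alternatives run, while r of some uncalled pairs did not (Gab1 with Ppp2r1a, for example). Apart from the smaller sample within a depth class, the cause of these changes was not tested. No paired analysis was possible because all tumours form 1 group. At depths of 42.58 M reads or more, the lowest value of any member was 4.71 RPKM, for Fyn.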
